A study of Mus musculus with 9 samples.

Results

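The features described here are the noncoding probes that the array design names by a chromosome region in place of a transcript accession. They were chosen as all non-control probes whose name starts with a chromosome and an interval, with regions on the sex chromosomes left out. This gave 15617 of the 55681 non-control probes, in 3390 intervals. The 577 probes of chromosome X regions were left out, and 0 probes named a region of chromosome Y. The probes carry 4432 region names, made from the interval and, for all but 13 probes, a letter F or R. The files do not define these letters, which are taken here as the strand. Coordinates are those of the design's annotation, mouse build mm9.

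RNA came from 3 mouse embryonic stem (ES) cell lines, labelled wild type, PKm1 knock-in and PKm2 knock-in and called wild type, PKM1 and PKM2 knock-in from here on. PKM1 and PKM2 are 2 splice products of Pkm, the gene of the last enzyme of glycolysis. Each knock-in line carries an altered Pkm gene made to give 1 of them, as its label names it. Each line was sampled undifferentiated, in medium with the cytokine LIF (day 0), and as floating embryoid bodies without LIF at day 3 and day 7. There was 1 one-colour Agilent array per line and day, 9 in all, so days are compared over 3 lines and lines over 3 days. Each genotype is 1 line and the labels give no clone or culture numbers, so the p-values rest on the spread between single arrays, which may be technical.

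Much of the mammalian genome outside protein-coding genes is transcribed. Long intergenic noncoding RNAs are spliced like messenger RNAs, are usually less abundant than these, and are often limited to few cell types. In ES cells several of them are known to act on the balance between self-renewal and differentiation, and others are by-products of active enhancers or promoters. A region probe reports RNA from its own target stretch and strand, and does not by itself show which transcript that RNA belongs to.

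The regions ranged from 62 to 7128487 bp, with a median of 7451 bp. Of the 3390 intervals, 405 had 1 probe and 1553 had 3, and the largest number was 20. Many intervals overlap or are nested, and merging them left 2126 separate loci, of which 751 held 2 or more intervals and 1 held 14. Probes of 1 locus lie in overlapping intervals, on either strand, and may share a target RNA. They are not independent measurements of a condition. The letters F and R were about equally common, with 7890 and 7714 probes.

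Region probes were detected less often than the other probes of the same arrays. A probe was counted as detected where its spot was well above the local background by the scanner software's flag. Between 5950 region probes (38.1%, PKM1 knock-in day 0) and 7506 (48.1%, wild type day 0) were detected on an array, against 59.7 to 66.4% of the 39487 other probes. The 1549 probes with a RefSeq noncoding accession lay near the region probes, between 39.4 and 49.6%. Over all 9 arrays, 5556 region probes (35.6%) were detected on none and 4904 (31.4%) on every one. Among the other probes these shares were 23.1% and 54.7%, and among the RefSeq noncoding accessions 35.8% and 34.2%. 7600 region probes were detected on 3 or more arrays and entered the tests.

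**Figure D1:**
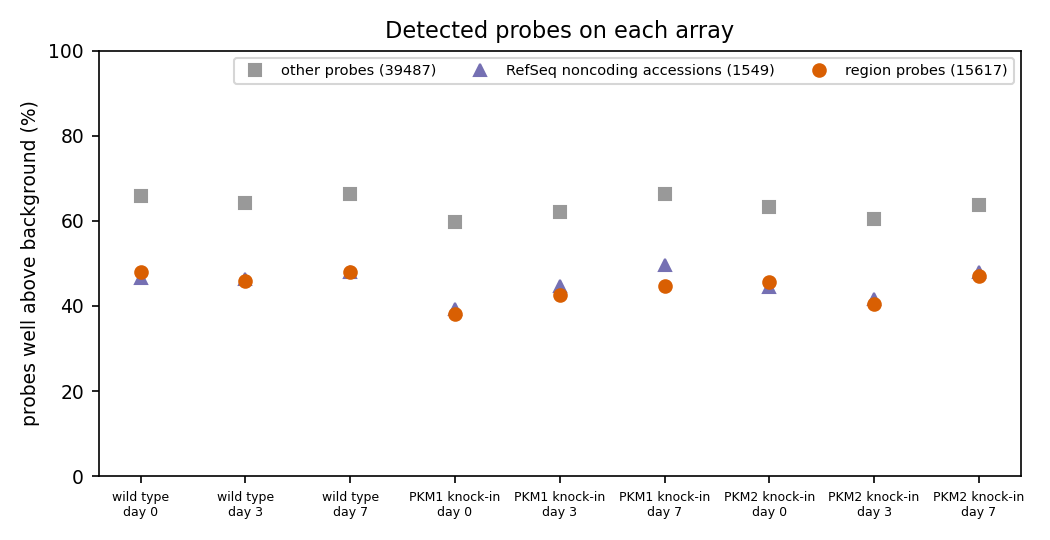
Percent of probes well above background on each of the 9 arrays, 1 array per line and day, for region probes (circles), probes with a RefSeq noncoding accession (triangles) and all other probes (squares). Region probes lie between 38.1 and 48.1% and below the other probes on all 9 arrays.

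Detection moved with the whole array, and its course over the days was not the same in the 3 lines. In the wild type line 7506, 7179 and 7481 were detected at days 0, 3 and 7. The PKM1 knock-in line had 5950, 6646 and 6987. The PKM2 knock-in line had 7117, 6320 and 7335. The other probes of these arrays took a like course, with 65.8, 64.1 and 66.3% detected in wild type, 59.7, 62.2 and 66.4% for PKM1 knock-in and 63.2, 60.5 and 63.8% for PKM2 knock-in. The means were 6858 ± 810 at day 0, 6715 ± 434 at day 3 and 7268 ± 254 at day 7 (SD, n = 3 lines), a spread as large as the differences. By line the means were 7389 ± 182 in wild type, 6528 ± 529 for PKM1 and 6924 ± 534 for PKM2 knock-in (SD, n = 3 days). None of the 6 comparisons passed an exact two-sided permutation test. The smallest p was 0.1, for PKM1 knock-in against wild type, where all 3 days of the knock-in line lay below all 3 of wild type (adjusted p = 0.4). A p of 0.1 is also the smallest that 3 arrays against 3 can give. The PKM1 knock-in day 0 array had the smallest share of both region probes and other probes.

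Few region probes were detected on a single day or in a single line. 24 (0.154%) were detected on all 3 day 0 arrays and on no other, against 0.0658% of the other probes. 8 (0.0512%) were detected on the day 3 arrays only, against 0.0380%, and 21 (0.134%) on the day 7 arrays only, against 0.106%. For the lines, 29 (0.186%) were detected in wild type only, against 0.127% of the other probes. In PKM1 knock-in cells only it was 1 (0.0064%), against 0.00253%, and in PKM2 knock-in cells only 3 (0.0192%), against 0.0127%. These shares were not tested against each other.

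Probes of one region name often disagreed on detection. Of 3772 names with 2 or more probes, 928 had no probe that entered the tests, 918 had all of them, and 1926 had some. For 1042 intervals with probes on both strands, 64 had neither strand among the tested probes, 280 had 1 strand and 698 had both. Probes labelled R entered the tests more often (52.2%) than those labelled F (45.1%). By chromosome the share ran from 40.6% on chromosome 9 to 55.0% on chromosome 5. It was 42.1% in intervals of 62 to 794 bp and 49.1 to 50.9% in the longer classes.

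The 5 region probes with the highest mean signal over the 9 arrays, a choice that fixes their brightness, were chr11:22681800-22707775 (R), chr17:39982023-39983277 (F), chr7:108209996-108216032 (R), chr17:48068261-48087905 (F) and chr14:78924115-78938125 (F). Their log2 scaled signal, the processed signal after each array was scaled to a common 75th percentile, lay between 16.21 and 17.98 on the 9 arrays. The median over the tested region probes was 5.85 to 6.31 on an array, against 7.81 to 7.91 over all tested probes.

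Early embryoid bodies were set against undifferentiated cells over the 3 lines. From day 0 to day 3, 88 region probes rose and 146 fell, by 0.99 to 4.35 on the log2 scale, and the 3 lines had the same sign for all 234. They belong to 143 region names in 117 loci. In limma, with an additive model of line and day and Benjamini-Hochberg adjustment over all 34160 tested probes, these are 3.08% of the 7600 region probes. Over all tested probes 3.35% were called, 1.47% higher and 1.89% lower, so the share among region probes lay near the background. The median change was -0.06 over region probes and 0.04 over all tested probes. 65 of the 88 risen probes carry the letter R, as do 87 of the 146 that fell, beside 4029 of the 7600 tested. Called probes of one locus may share their target, so these are not independent counts. For 61 of the 234 the probe was undetected on every array of the dimmer day. The size of such a change rests on undetected values.

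The called probes had steps of like size in the lines, which the choice of probes favours. A call needs a small spread between lines around the day change. Like steps and a single sign in all called probes therefore follow in part from the choice. For the 88 risen probes the median step was 1.67 in wild type, 1.74 for PKM1 and 1.51 for PKM2 knock-in. For the 146 that fell it was -1.66, -1.77 and -2.07. The PKM2 knock-in steps compare 2 arrays of the same slide. With the slide as a block 178 region probes were called. The count depended on single arrays: none was called without the wild type day 0, the PKM1 knock-in day 0 or the PKM1 knock-in day 3 array, although 1118 to 1205 then had an unadjusted p under 0.05. The count was 1 without wild type day 3, 20 and 26 without PKM2 knock-in day 3 and day 0, 64 without wild type day 7 and 361 without PKM2 knock-in day 7. Scaled to probes detected on all 9 arrays, 71 rose and 239 fell, a larger share of falls.

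The regions that changed by day 3 were ranked by the leading probe of each name, the qualifying called probe with the smallest p. Other called probes of a name can have changed more. Of the 10 largest rises ranked so, 4 were of probes not detected on any day 0 array. The chr12:55417150-55418002 (R) probe measured 2.49, 2.35 and 3.35 at day 0 in wild type cells, PKM1 knock-in and PKM2 knock-in, and 4.67, 7.19 and 5.50 at day 3. All 3 day 3 values lay above all 3 day 0 values, and the probe was at least 2.91-fold higher (log2 change 3.05 ± 0.53, SE, n = 3 lines, adjusted p = 0.0383). This rests on 1 probe of 3: the others did not enter the tests, and 1 of them read 4.32 at day 0 and 3.95 at day 3 in PKM1 knock-in cells. Such a bound sets the brighter group's mean against a limit for each dimmer array: its lowest signal among detected probes, or what the probe itself read if that was higher. The chr2:94082835-94101939 (R) probe went from 2.32, 2.53 and 2.32 to 4.29, 5.58 and 6.31 and stayed at 5.09, 6.45 and 5.73 at day 7. It was at least 2.22-fold higher at day 3 (3.00 ± 0.40, adjusted p = 0.0248), and 2.32 is the floor set for all signals. The other 3 tested probes of that region had changes of 2.12, 1.82 and 0.30, the last from a probe detected on all 9 arrays.

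Regions with several probes gave the most repeated rises. All 5 probes of chr8:37582187-37621987 (R), an interval of 39801 bp, were called, with changes of 1.68 to 2.65. Its leading probe measured 6.14, 4.83 and 6.36 at day 0 and 7.89, 7.68 and 8.41 at day 3 in the 3 lines. The groups did not overlap, and at day 7 it measured 7.72, 7.51 and 8.29 (day 3 change 2.22 ± 0.27, adjusted p = 0.0210). All 4 probes of chr3:75451370-75459674 (R) were called with changes of 2.53 to 2.57. Its leading probe, detected on all 9 arrays, went from 8.95, 9.73 and 10.005 to 11.82, 12.30 and 12.24. At day 7 it was back at 9.59 and 9.36 in wild type and PKM1 knock-in cells and stood at 11.69 in the PKM2 knock-in line. Changes of 2.52, 2.24, 1.72 and 1.67 were the medians of chr1:135956616-135957485 (R, 3 of 3 probes called), chr5:123439974-123448354 (F, 3 of 3), chr14:22267795-22319045 (F, 5 of 9) and chr13:19611679-19620954 (R, 5 of 5). Overlapping names on chromosome 8, chr8:48480224-48480698 (R) and chr8:48476637-48492537 (R), also rose, by 2.64 and 2.30 in their leading probes.

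The other large rises were of chr2:154244616-154245900 (R, 2.92), chr3:45081952-45092352 (F, 2.75), chr17:34003823-34011015 (F, 2.42) and chr1:138442536-138521080 (R, 2.32). At chr17:34003823-34011015 the other 2 probes were detected on all 9 arrays and had changes of 1.31 and 1.74. The chr3:45081952-45092352 rise rests on 1 probe of 3, since the others did not enter the tests. That probe was detected on the day 3 arrays only, and passed the detection filter only through them. Of the untested probes, 1 went from 6.67 at day 0 to 2.32 at day 3 in wild type. In the knock-in lines it was at or near the floor on both days. With the slide as a block 4 of the 20 largest day 3 changes of leading probes were no longer called, those at chr12:55417150-55418002, chr2:154244616-154245900, chr1:138442536-138521080 and chr4:55465247-55494547 (adjusted p = 0.0520 to 0.0694).

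**Figure D2:**
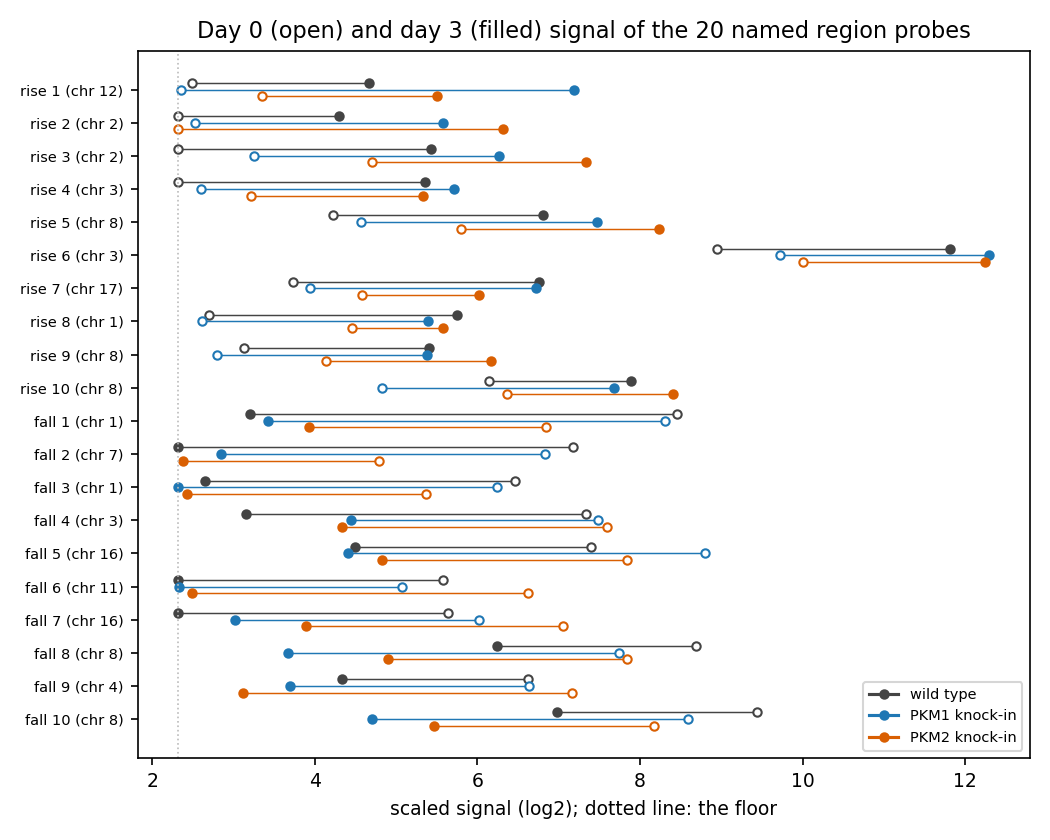
Log2 scaled signal of the 10 largest rises and 10 largest falls among leading probes, the qualifying called probe with the smallest p of each region name. Open circles are day 0 and filled circles day 3, with 1 line of points per cell line and 1 array per point. Rises and falls are numbered by size of the change. The 3 lines moved the same way in every row, which the choice of these probes required, and the leftmost points sit at the floor of 2.32.

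The largest fall was in a region of chromosome 1. The leading probe of chr1:175705225-175717250 (R) measured 8.45, 8.31 and 6.85 at day 0 in the 3 lines, in the same order, and 3.20, 3.42 and 3.93 at day 3, when it was detected on no array. It was at least 12.5-fold lower (-4.35 ± 0.44, SE, n = 3 lines, adjusted p = 0.0168). At day 7 it read 5.19, 4.74 and 4.30 and was detected in wild type and PKM1 knock-in cells. Another R probe of the region, detected on all 9 arrays, had a day 3 change of -0.41. In the neighbouring region, the leading probe of chr1:175654606-175672031 (R) fell from 6.47, 6.24 and 5.37 to 2.65, 2.32 and 2.43, at least 3.49-fold (adjusted p = 0.0146, the smallest of any region probe in this comparison). This probe was detected on the day 0 arrays only and passed the detection filter only through them. Its p is therefore not independent support for the fall. Over chr1:175653557-175717250, 4 called regions lie within 63694 bp, and 6 of 10 tested probes were called, all lower and all labelled R. The median of these 6 was 6.29, 5.84 and 4.98 at day 0, 2.84, 2.32 and 2.38 at day 3, and 2.72, 2.32 and 2.49 at day 7. All 6 were detected on each day 0 array, none on any day 3 array, and 1, 2 and 0 at day 7 in the 3 lines.

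A second run of falls, on chromosome 16, was low at day 3 only. Over chr16:43623175-43642715, 10 of 14 tested probes in 3 regions were called, all lower and all labelled F, while neither R probe was called. The median of the 10 was 7.55, 8.25 and 8.0 at day 0, 4.51, 5.11 and 5.25 at day 3, and 7.63, 7.39 and 6.25 at day 7. The day 3 values were the lowest of each line, and the PKM2 knock-in line had the lowest day 7 value. The leading probe, detected on all 9 arrays, was 10.8-fold lower at day 3 (-3.43 ± 0.39, adjusted p = 0.0199). No probe here passed the test of day 7 against day 3, where the median over the 14 was 1.64 and the smallest adjusted p was 0.0869. The chr16:34524589-34573439 (R) probe had a like course, from 5.64, 6.02 and 7.05 through 2.32, 3.02 and 3.89 to 6.10, 5.21 and 5.52. The other tested probe of that region, detected on all 9 arrays, had a day 3 change of -0.50.

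By the rule for runs, 3 or more called regions starting within 100 kb of each other, the only run of rises lay on chromosome 15. Over chr15:102026122-102033838, 6 of 9 tested probes in 3 overlapping regions were called, all R. Their median went from 4.98, 4.54 and 5.65 to 6.73, 6.36 and 7.08 and was 6.60, 5.71 and 6.83 at day 7.

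**Figure D3:**
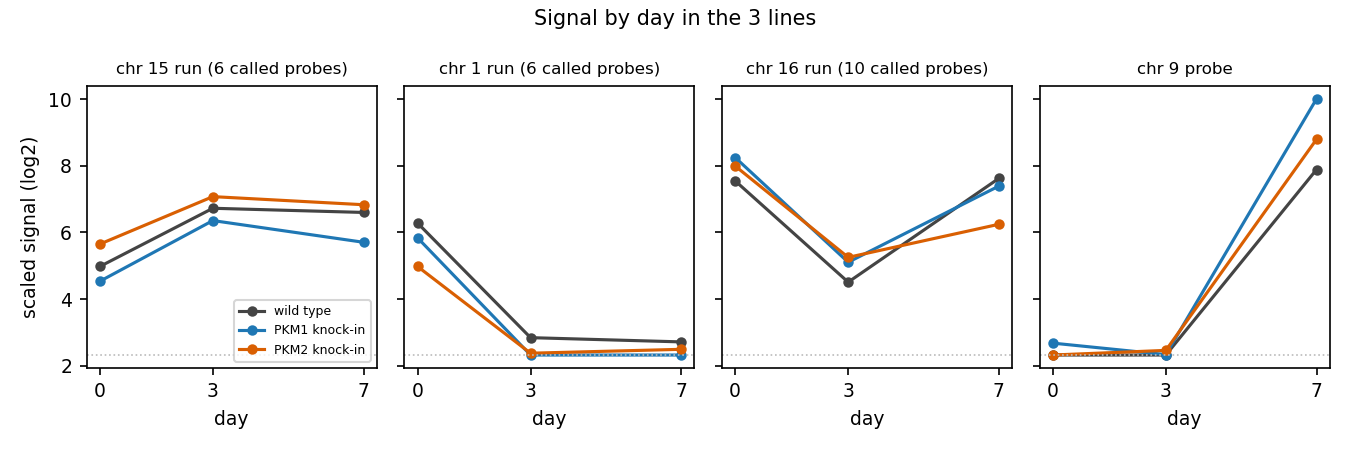
Log2 scaled signal by day in the 3 lines, 1 array per point: medians of the called probes of the chromosome 15, 1 and 16 runs, and the chromosome 9 probe called at day 7. The chromosome 1 run has medians of 2.32 to 2.84 at day 3 and at day 7, at or near the floor (dotted line), the chromosome 16 run falls by day 3 and reads 7.63, 7.39 and 6.25 at day 7, and the chromosome 9 probe rises at day 7 in all 3 lines, to 7.89, 10.01 and 8.80.

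Other falls were also seen in several probes of one region. At chr11:6421951-6429173 (R) 4 of 8 probes were called. Its leading probe fell from 5.57, 5.07 and 6.62 to 2.32, 2.32 and 2.49, at least 2.90-fold (adjusted p = 0.0160), while 1 of the 8, detected on all arrays, had a change of 0.66. The leading probe was detected on the day 0 arrays only and passed the detection filter only through them. Its p is therefore not independent support for the fall. At chr8:124355710-124401160 (R) 4 of 5 were called, with a leading change of -3.02 ± 0.36 (adjusted p = 0.0207), and the nested chr8:124397412-124398022 (R) fell by 3.15. All 3 probes were called at chr16:43623175-43624069 (F, median -2.85), chr16:4871449-4874336 (R, -2.44), chr3:113296823-113298691 (R, -1.44) and chr7:80763588-80764230 (F, -1.44). In all, 26 region names had 3 or more called probes, 11 higher and 15 lower. In 11 of the 26 every tested probe was called. The remaining large falls were at chr7:91558475-91733625 (F, -3.75), chr3:145313275-145315057 (F, -3.49) and chr4:55465247-55494547 (F, -3.09). The other tested probes of these names had changes of -2.44 and -1.21, -3.05 and -2.98, and -0.99. The leading chr7:91558475-91733625 probe was detected on the day 0 arrays only, and passed the filter only through them. At chr3:145313275-145315057 the signal at day 7 was 6.71 and 7.68 in wild type and PKM1 knock-in cells, near day 0 (7.34 and 7.48), and 4.86 for PKM2 knock-in.

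Markers of fibroblast and feeder cells moved with the day 3 falls as a sum, but the genes of the list differed. The summed scaled signal of 7 such genes (Col1a1, Col1a2, Col3a1, Dcn, Lum, Thy1 and Postn) was 15530, 15100 and 3367 at day 0, 1268, 919 and 632 at day 3, and 4004, 6003 and 482 at day 7 in the 3 lines. 6 of the 7 were detected on each day 0 array and 4 or 5 on the day 3 arrays. The matrix gene Lum was at or near the floor outside 2 day 0 arrays. In wild type and PKM1 knock-in cells Dcn was the brightest at day 0 (log2 13.39 and 13.40). Thy1 changed little there by day 3, from 10.27 to 9.93 and from 10.06 to 9.52. Postn was at or near the floor in both at days 0 and 3 and read 8.02 and 7.59 at day 7. Col1a1 and Col3a1 were higher in both at day 7 than at day 0. The part of these markers in the results was not tested. In bulk RNA, fewer cells of a type and less RNA per cell cannot be told apart. The 7 ES cell markers (Pou5f1, Sox2, Nanog, Zfp42, Dppa4, Esrrb and Tdgf1) were detected on all 9 arrays, the day 3 and day 7 embryoid bodies included.

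Strands of one region could differ. Of 674 intervals with a tested probe on each strand, the median changes of the strands at day 3 had opposite signs in 293. The median size of the difference between strands was 0.44, and the largest were at chr8:124355710-124401160, chr1:175705225-175717250 and chr8:37582187-37621987. At chr8:37582187-37621987 the R probes had a median change of 2.42 and the single F probe -0.30. At chr1:175705225-175717250 the R median was -2.58 and the single F probe 0.39, and the F probe was detected in the wild type line only. At chr8:124355710-124401160 the R median was -3.02 and the single F probe 0.11, with steps of -1.58, -1.46 and 3.37 in the 3 lines. None of these F probes was called.

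Probes of one name often differed in the sign of their change. Of 1923 names with 2 or more tested probes, all probes had the same sign of change at day 3 in 1139 (59.2%). Of the 123 of these names that held a called probe, 99 had a single sign, and 47 had 2 or more called probes.

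At day 7 the region that changed most was a short one on chromosome 9. The probe of chr9:40268246-40268441 (R, 196 bp) was not detected on any day 0 or day 3 array, where it measured 2.32 to 2.68, and rose to 7.89, 10.01 and 8.80 at day 7 in the 3 lines, in the order used above. It was at least 25.3-fold higher than at day 0 (6.46 ± 0.40, SE, n = 3 lines, limma adjusted p = 0.00705) and at least 25.6-fold higher than at day 3 (adjusted p = 0.0328). The probe passed the detection filter only through the 3 day 7 arrays, where it was high, and its other values lay at or near the floor. These p-values are therefore not independent support for the change. With no filter the limma adjusted p was 0.0942 against day 0 and 0.163 against day 3. The day 7 against day 0 change was 6.50 with the slide as a block (adjusted p = 0.0689). Without the wild type day 0 array or the PKM1 knock-in day 0 array the adjusted p was 0.0690 and 0.112, and against day 3 it was 0.0778 to 0.244 without any 1 day 0 or day 3 array. Within slides, wild type day 7 exceeded day 0 on slide 1, and the PKM1 knock-in arrays of slide 2 did likewise.

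The probes around it were less alike in the 3 lines. Over chr9:40266027-40271031, 8 probes in 3 regions had medians of 2.32, 2.69 and 2.32 at day 0, 2.32, 2.66 and 2.44 at day 3, and 7.22, 9.17 and 4.10 at day 7. 7 of the 8 were detected at day 7 in wild type, 8 in PKM1 knock-in and 4 in PKM2 knock-in. A second probe of the same 196 bp read 8.90, 10.76 and 6.16 at day 7, and the third, detected on all arrays, read 8.99, 10.52 and 8.25 after 7.62, 7.90 and 7.46 at day 0. Markers of visceral endoderm, an extraembryonic lineage of embryoid bodies, moved with these values in part. The summed signal of 6 such genes was 2499, 3286 and 3157 at day 0, 3757, 3742 and 3889 at day 3, and 3639, 321600 and 4896 at day 7. In wild type the sum was thus lower at day 7 than at day 3. Of the 6 genes, Apoa2 read 11.08 to 11.89 on the log2 scale on all wild type and PKM2 knock-in arrays. Afp and Ttr were higher at day 7 than at day 0 in all 3 lines, Ttr going from 2.68, 3.15 and 3.00 to 9.46, 15.19 and 8.69. Amn went from 7.69 to 5.89 in wild type, and Apoa1 stayed at or near the floor in the PKM2 knock-in line. 6, 6 and 5 of the 6 were detected at day 7 against 3 on each day 0 array. Their part in the result was not tested.

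In all, 2 region probes were called higher and 5 lower at day 7 than at day 0, which is 0.0921% of those tested, beside 0.0761% of all tested probes (0.0117% higher and 0.0644% lower). No call was left with the slide as a block. 1239 region probes (16.3%) had an unadjusted p under 0.05, beside 13.9% of all probes. The 4 falls named by rule were at chr1:175654606-175672031 (R, -3.59), chr11:6421951-6429173 (R, -3.39), chr1:175653557-175671940 (R, -2.65) and chr14:76912477-76931702 (R, -2.58), all of probes undetected at day 7. These 4 probes were detected on the day 0 arrays only, and passed the filter only through them. The fifth fall was of a second probe of chr1:175654606-175672031 (R, -3.53), and the other rise, by 2.29, was on a chromosome whose regions are not named here. At chr14:76912477-76931702 the signal was 5.36, 5.06 and 6.0 at day 0 and 2.45, 2.32 and 3.92 at day 7, at least 2.58-fold lower (adjusted p = 0.0374). The comparisons of day 3 and of day 7 share the day 0 arrays.

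Between day 7 and day 3 only the chromosome 9 probe was called, beside 0.00293% of all tested probes. The next smallest p belonged to chr6:129151512-129208737 (R, 2.42) and chr11:18367482-18393258 (R, 2.47), both with an adjusted p of 0.0835. The chr11:18367482-18393258 probe measured 4.76, 4.91 and 4.85 at day 7 and 2.32, 2.32 and 2.48 at day 3. Each of these changes is of 1 probe. Other tested probes of the chromosome 6 name had changes of 2.07 and 1.11, and the rest 0.22 or less. The other probe of the chromosome 11 name, detected on all 9 arrays, had 0.20. With the slide as a block 59 region probes were among 713 called over all probes. Without the PKM2 knock-in day 7 array, which stood alone on its slide, 230 were among 2126. Region probes are 7600 of the 34160 tested, so their share of these calls was below their share of the tested probes.

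Single steps in single lines, which have no replicate check, were counted at 4-fold or more. From day 0 to day 3, 303 region probes (4.11%) were lower and 113 (1.53%) higher in wild type, beside 3.73% and 1.70% of all probes. For PKM1 knock-in 185 (2.74%) were lower and 184 (2.72%) higher, beside 2.68% and 2.25%. For PKM2 knock-in these were 302 (4.27%) and 184 (2.60%), beside 3.51% and 1.91%. From day 0 to day 7, 109 (1.47%) were higher and 158 (2.13%) lower in wild type, beside 1.91% and 1.45%. PKM1 knock-in cells had 208 (3.03%) higher and 220 (3.20%) lower, beside 4.87% and 1.96%. PKM2 knock-in cells had 370 (5.03%) higher and 170 (2.31%) lower, beside 3.19% and 2.30%, from arrays of different slides. From day 3 to day 7 the higher and lower shares were 3.00 and 1.07% in wild type, beside 3.95% and 1.31%. They were 3.76 and 2.98% for PKM1 knock-in, beside 6.15% and 2.52%, and 4.18 and 0.609% for PKM2 knock-in, beside 2.86% and 0.585%. In wild type and PKM1 knock-in cells the share of rises among region probes at day 7 was thus below that of all probes, and in PKM2 knock-in cells it was above it.

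The comparisons between lines asked which regions differed with the pyruvate kinase isoform, as far as 1 line each can show it. The only called difference was at chr3:93162669-93163114 (R, 446 bp), whose probe was undetected in wild type and detected on all 6 knock-in arrays. It measured 2.32, 3.22 and 3.13 at days 0, 3 and 7 in wild type, 5.72, 5.88 and 5.88 for PKM1 and 5.41, 6.09 and 6.14 for PKM2 knock-in cells. Values of wild type and knock-in arrays did not overlap. Against wild type it was at least 3.55-fold higher in the PKM1 knock-in line (2.93 ± 0.22, SE, n = 3 days, limma adjusted p = 0.0192) and PKM2 knock-in cells had at least 3.69-fold more (2.99 ± 0.22, adjusted p = 0.0199). Both comparisons use the same wild type arrays. The probe passed the detection filter only through the knock-in arrays, where it was high. These p-values are therefore not independent support for the difference. Within slide 1, the day 0 difference of the PKM2 knock-in line was from 2.32 to 5.41, and no slide held a PKM1 knock-in and a wild type array of the same day.

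That call rests on 1 probe and on the choice of settings. Of the other 2 probes of the region, 1 was detected on all 9 arrays with differences of 0.29 and 0.22, and the other had 0.97 and 1.87. The surrounding locus chr3:93150607-93184368 had 18 tested probes of 27, and 17 were higher for PKM1 and 18 for PKM2 knock-in cells, with medians of 1.51 and 1.92. With the slide as a block the adjusted p was 0.196 and 0.392, with a floor of 20 it was 0.0788 and 0.0846, and without any 1 wild type array it was 0.157 to 0.223. With no filter the limma adjusted p was 0.0819 for PKM1 knock-in, and the PKM2 knock-in call was lost too. The PKM1 knock-in call was lost without any 1 of the 9 arrays, and the PKM2 knock-in call without any 1 except PKM1 knock-in day 0 or day 7.

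**Figure D4:**
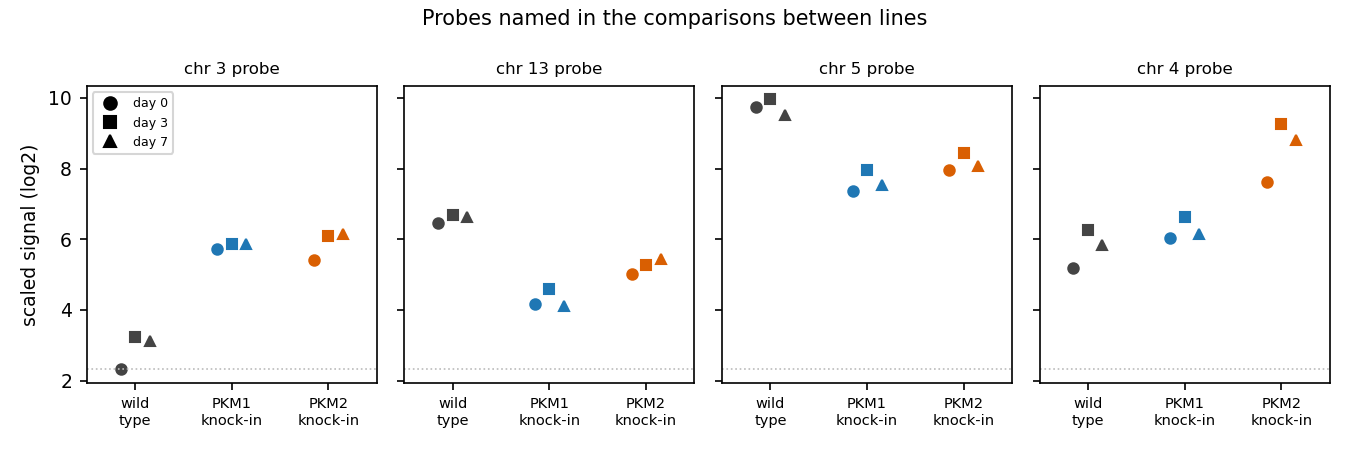
Log2 scaled signal of 4 probes named in the comparisons between lines, 1 array per point, with the day shown by the marker. The chromosome 3 probe is above the wild type values on all 6 knock-in arrays; the chromosome 13 and chromosome 5 probes are lower in both knock-in lines, and the chromosome 4 probe is higher in the PKM2 knock-in line on all 3 days.

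1 region probe was thus called in PKM1 knock-in against wild type, beside 0.0205% of all tested probes (0.0146% higher and 0.00585% lower), and 1 in PKM2 knock-in against wild type, beside 0.0176%. Just outside the threshold, chr13:51249947-51250937 (F) had 6.45, 6.70 and 6.62 in wild type, 4.17, 4.60 and 4.13 for PKM1 and 5.02, 5.28 and 5.46 for PKM2 knock-in cells (PKM1 difference -2.29 ± 0.21, adjusted p = 0.0507). All 3 of its probes had lower values in both knock-in lines, by 1.65 to 2.47 and 0.95 to 1.34. At chr5:105072936-105074001 (F) 2 of 3 probes read lower, by 2.12 and 2.30 for PKM1 knock-in, and the third by 0.39. At chr4:140904589-140915114 (F) 1 of 2 probes had 5.19, 6.26 and 5.85 in wild type, 6.03, 6.64 and 6.15 for PKM1 and 7.63, 9.26 and 8.81 for PKM2 knock-in cells (2.80 ± 0.26 against wild type, adjusted p = 0.0551), while the other probe had a difference of -0.35. In PKM2 against PKM1 knock-in 0 region probes were called by limma under any setting tried, beside 0% of all tested probes, and 847 (11.1%) had an unadjusted p under 0.05, beside 8.4% of all probes.

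A difference between lines that spanned several loci lay on chromosome 12, over chr12:110842149-110988678. This interval of 146530 bp holds 3 loci with 10 regions and 64 probes, of which 46 were tested. It was singled out after its values were seen, so the values are a description. The median of the 46 was 6.72, 5.68 and 5.98 at days 0, 3 and 7 in wild type, 6.21, 5.93 and 6.52 for PKM1 and 5.50, 4.06 and 4.52 for PKM2 knock-in cells. The PKM2 knock-in value was the lowest of each day. The fibroblast and feeder marker sum given above was also lowest in the PKM2 knock-in line on each day (3367 against 15530 and 15100 at day 0), and its part in the result was not tested. Detected probes numbered 46, 42 and 43 in wild type, 39, 37 and 44 for PKM1 and 38, 17 and 21 for PKM2 knock-in cells. The median difference of the PKM2 knock-in line was -1.73 from wild type and -1.59 from the PKM1 knock-in line, beside a median size of 0.22 and 0.28 over the 491 loci with at least 6 tested probes. No probe of the interval was called in either comparison (smallest adjusted p 0.122 and 0.502).

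The difference was smaller at day 0 than later. Against wild type the median over the 46 was -1.16 at day 0, -1.90 at day 3 and -1.80 at day 7, with 44, 42 and 35 probes lower. Against the PKM1 knock-in line it was -0.84, -1.94 and -1.97. Slide 1 held both arrays of the day 0 difference from wild type, and both of the day 3 difference between the knock-in lines. The PKM1 knock-in line differed from wild type by -0.26, 0.12 and 0.24, with 37, 14 and 11 probes lower. The 12 probes detected on all 9 arrays had medians of 9.73, 8.47 and 8.93 in wild type, 9.17, 8.57 and 8.99 for PKM1 and 8.16, 6.62 and 5.89 for PKM2 knock-in cells, so PKM2 knock-in was lowest among detected probes too. It was also lowest on each day on both strands, with 33 F and 13 R probes.

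**Figure D5:**
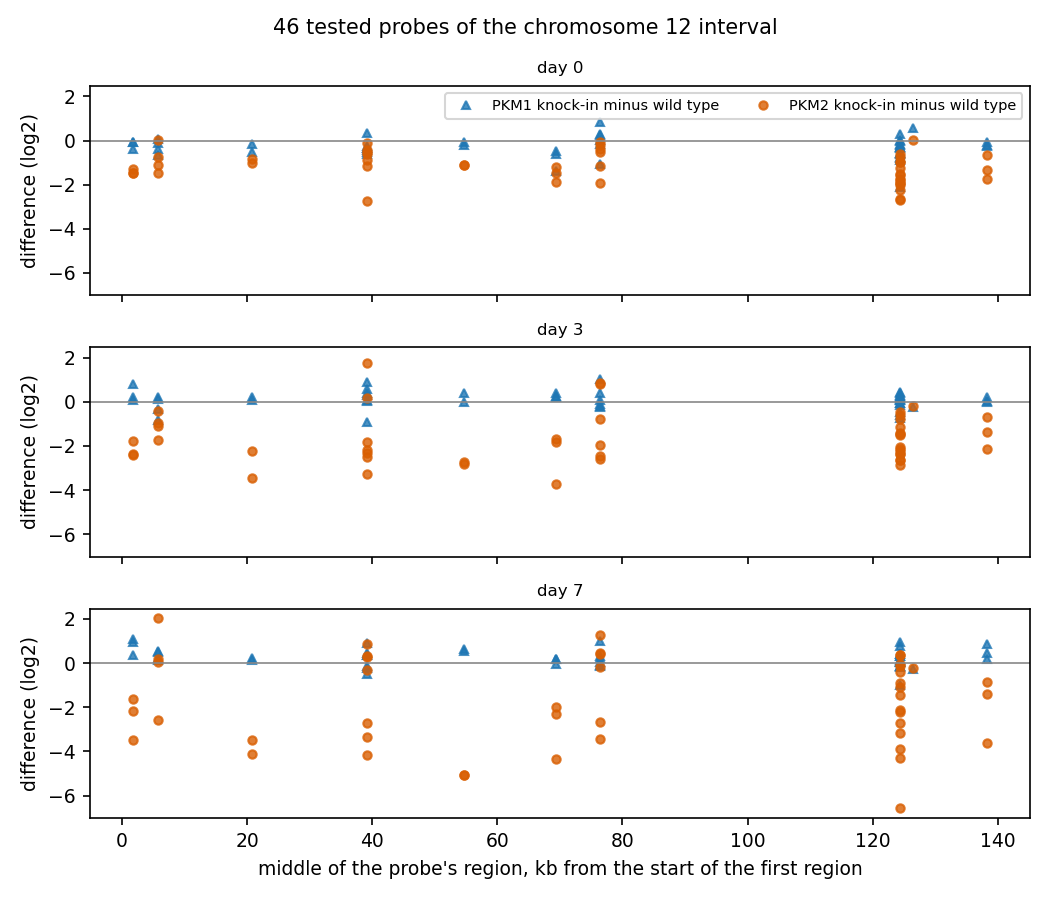
Difference in log2 signal from wild type for the 46 tested probes of the chromosome 12 interval at days 0, 3 and 7, against the middle of each probe's region in kb from the start of the first region; circles are the PKM2 and triangles the PKM1 knock-in line, 1 array each. Circles lie below 0 for 44, 42 and 35 of the 46 probes at days 0, 3 and 7, and triangles for 37, 14 and 11.

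Accession probes of Meg3 and Mirg took a course like this interval, as did genes of other chromosomes. Meg3 is a maternally expressed noncoding RNA and Mirg a host transcript of microRNAs, both of the imprinted Dlk1-Dio3 cluster of chromosome 12. Likeness was Pearson's r with the median of the 46 probes over the 9 arrays, which share the lines and days, and is a description. Over 15013 genes Meg3 ranked 4 (r = 0.93), behind Gna14, Tmem168 and Kmt2e of other chromosomes (r = 0.98, 0.96 and 0.94). The other Meg3 probes had r = 0.89 and 0.92. The Mirg probe had 0.91, below Psmb8 of chromosome 17, which ranked 5 (r = 0.92). The leading Meg3 probe measured 13.45, 12.34 and 13.24 in wild type, 13.36, 12.20 and 13.74 for PKM1 and 12.31, 9.50 and 8.35 for PKM2 knock-in cells. The Mirg probe measured 12.74, 11.23 and 11.81, 12.31, 11.44 and 11.93, and 10.92, 8.56 and 6.61. On both, the PKM2 knock-in line was lowest on each day. Dlk1, which encodes a membrane protein of the same cluster, read 9.71, 8.54 and 10.62, 9.08, 7.91 and 14.09, and 9.58, 7.29 and 6.72 on its brighter probe, with day 0 values close together. Dio3, which encodes a thyroid hormone deiodinase, read 7.83, 5.93 and 5.78, 6.63, 4.71 and 7.74, and 8.16, 4.28 and 4.80, so the PKM2 knock-in line was highest at day 0 and lowest at days 3 and 7. The Rtl1 probe was detected on no array. Where the interval lies relative to these genes was not determined here. A nearby region, chr12:110738120-110769295 (R), was among the 3 smallest p in PKM2 against PKM1 knock-in (adjusted p = 0.502), with 5.05, 4.93 and 4.19 for PKM1 and 3.36, 2.45 and 2.49 for PKM2 knock-in cells.

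Other loci with 6 or more tested probes and a large median difference are given as values, chosen after these were seen. At chr6:52046805-52072744 all 12 probes were higher in the PKM2 knock-in line than in wild type, with medians of 6.69, 6.85 and 7.30 against 4.93, 4.52 and 5.54, and the PKM1 knock-in line between them at days 0 and 3 (median difference 2.56, 0 called). At chr13:62364360-62381775 all 8 probes were lower in both knock-in lines. Wild type read 9.45, 10.42 and 9.53, the PKM1 knock-in line 7.92, 8.09 and 7.40 and the PKM2 knock-in line 8.03, 6.31 and 6.36. At chr16:91174611-91200786 the 6 probes were lower in the PKM1 knock-in line (median difference -2.03), and at chr14:14660983-14747272 8 of 9 were (-1.99). Across days, chr13:28477490-28985604, with 25 tested probes in 11 regions, had a median of 1.98 at day 7 against day 0, higher in 23 probes, and 0 called.

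At chr2:154235540-154248551 all 7 probes had higher values at day 3 (median 2.49, 1 called). They measured 4.14, 5.08 and 6.37 at day 0 and 7.77, 8.43 and 7.33 at day 3. Of 15013 genes, Dlg3 of chromosome X ranked 1 in likeness to this locus (r = 0.95), and Nnat, an imprinted gene of chromosome 2, ranked 2 (r = 0.94). For the chromosome 16 run, genes of other chromosomes ranked 1 and 2 (r = 0.99 and 0.98). Zbtb20, which encodes a zinc finger transcription factor and lies on the same chromosome, ranked 3 (r = 0.98).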

How the data were processed

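Total RNA of 9 samples was hybridised to 9 one-colour Agilent arrays. The intensity values are the processed signals that the authors made with Agilent Feature Extraction 10.10, per the submitters' processing notes, which subtracts local background; the authors' value table repeats these intensities with rounding (largest difference 0.497%). Spot flags are other columns deposited in the same scanner files. Array precision is limited by the number of arrays. Each array had 62976 spots, of which 3671 controls were left out, 0 were saturated and 133 to 225 were flagged as outliers and set aside.

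Signals were scaled to a common 75th percentile, floored at 5 and log2 transformed, and spots of a probe averaged. Probes well above background on at least 3 arrays were fitted in limma 3.58.1 (R 4.3.3) with line and day as additive terms and called at an adjusted p under 0.05 over all tested probes. The method was tested on simulated data. Named regions were, per comparison, the 10 (days) or 5 (lines) largest called changes in each direction with 1 sign in all lines or days and all brighter arrays detected, 1 probe per name; the 3 smallest p where fewer than 3 qualified; the 5 brightest regions; names with 3 or more called probes; runs of 3 or more called regions starting within 100 kb of each other; and the 3 largest strand differences. The 1 probe per name was the qualifying one with the smallest p, taken before the ranking by change. Chromosome 18 regions are counted but not named. Members and lists were chosen with earlier results of these data known. Genes were named through RefSeq accessions (27235 probes). Region probes were not matched to genes, because the genome build of the gene table differs from that of the array. Slide 1 held 5 arrays, slide 2 held 3, and slide 3 only that of PKM2 knock-in cells at day 7. Alternatives covered the background correction (offset 50), normalization, filter, floor, moderation, slide block, arrays fitted, detection flag and leaving out lines, days or, added after seeing the data, single arrays.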

Additional observations from a re-analysis of the deposited data

Results flagged for a closer look

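Each result here moved one way in 1 line and the other way in the other two; the difference between lines was not tested, since each line has 1 array per day. The number of detected region probes rose from day 0 to day 3 by 696 in the PKM1 knock-in line, against -327 in wild type and -797 for PKM2 knock-in. The share of other probes detected moved the same way on these arrays, from 59.7 to 62.2%, from 65.8 to 64.1% and from 63.2 to 60.5%. From day 0 to day 7 the change was -25 in wild type against 1037 and 218 in the PKM1 and PKM2 knock-in lines. The median of the chromosome 12 interval was 0.0436 higher at day 7 than at day 0 for PKM1 knock-in, against -0.50 and -0.90 in wild type and the PKM2 knock-in line.

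Single F probes behaved likewise. At chr8:124355710-124401160 the day 3 step was 3.37 for PKM2 knock-in, against -1.58 in wild type and -1.46 for PKM1 knock-in. At chr1:175705225-175717250 it was -1.24 in the PKM2 knock-in line and 1.64 and 0.76 in the others. At chr8:37582187-37621987 it was 0.0476 in the PKM2 knock-in line and -0.59 and -0.36 in the others. At chr17:22815742-22828592 the day 7 step was 0.028 in wild type and -2.06 and -3.40 in the PKM1 and PKM2 knock-in lines.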

How the results depend on the processing

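The probes named for the largest changes or smallest p in the 6 comparisons kept their direction under every alternative that could be fitted (820 values). This was largely fixed in advance. The filter, the moderation, region probes alone and the 6 compared arrays alone leave the log2 change as it was. The probes had also been picked for large changes or small p. Other named regions were not refitted one by one. Calls were less stable: 314 were lost and 18 gained, and the cause was not tested. For day 3 against day 0 (234 called), 0 were called with no filter, 0 to 73 without 1 line and 0 to 361 without 1 array. For day 7 against day 0 (7), the count was 0 with no filter, with detection on all 9 arrays required, with the slide as a block or with only the 6 arrays compared, 2 with trend and robust moderation, 12 scaled to probes detected on all arrays, 14 with a floor of 20, 18 with region probes alone, 0 to 9 without 1 line and 0 to 21 without 1 array. For day 7 against day 3 (1), it was 0 with quantile normalization, no filter, detection on all 9 arrays, a floor of 20 or only 6 arrays, 16 with normexp, 59 with the slide as a block, 0 to 149 without 1 line and 0 to 230 without 1 array. For PKM1 knock-in against wild type (1), it was 12 with normexp, 3 with quantile normalization or scaling to detected probes, 5 with detection on all 9 arrays, 6 with a floor of 20, 7 with trend and robust moderation, and 0 with no filter, the slide block, only 6 arrays, or without any 1 day or array. For PKM2 knock-in against wild type (1), it was 25 with normexp, 3 with trend and robust moderation, 0 with no filter, a floor of 20, the slide block or only 6 arrays, 0 without any 1 day and 0 to 5 without 1 array. The median number of region probes detected, 7117, was 11590 with the software's weaker significance flag and 11378 above the 95th percentile of negative controls.

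Each fit with the slide as a block leaves the PKM2 knock-in day 7 array without weight. Line and day are both terms of each fit, so days were compared within lines. Values at the floor cannot be ordered.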
